A study of Homo sapiens with 12 samples.

Results

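Co-cultures of HER2 L755S and PIK3CA E545K cells were compared with PIK3CA E545K cells grown alone, gene by gene. Both lines were derived from MCF-10A, breast epithelial cells of human origin that form no tumours, and differ in the mutation they carry. HER2 L755S is a substitution in the kinase part of the growth factor receptor HER2, and PIK3CA E545K one in the PI3K subunit that carries the catalytic site. The comparison used the 4 arrays titled as co-culture and the 4 titled as PIK3CA E545K single culture, 8 of the 12 arrays of the series. The other 4 arrays, of HER2 L755S cells grown alone, entered the estimate of the spread, and their levels are given for some genes only. All cultures grew 7 to 14 days in medium with a physiologic level of EGF, with no additional treatment. Co-cultures were harvested at about 75% HER2-mutant cells, as counted by droplet digital PCR, which leaves about 25% with the PIK3CA mutation. Each mutation is represented by 1 line as far as the labels say. They do not say whether the 4 replicates of a group came from separate cultures, so p-values measure the spread between these samples, which may be technical. No MCF-10A cells without either mutation were analysed here.

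Growth factor signalling in breast epithelial cells runs from EGFR family receptors through the kinase ERK and through PI3K and AKT. ERK activity switches on early transcription factors and a set of its own inhibitors, the Sprouty proteins and dual-specificity phosphatases among them. AKT keeps the FOXO transcription factors out of the nucleus, so the transcripts of FOXO targets are usually low where AKT is active. MCF-10A cells depend on EGF for growth and express genes of the basal layer of the breast epithelium.

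Values are log2 probe-set signals as deposited, so a difference of 1 is a 2-fold difference in signal. Array medians ran from 6.41 to 6.49 over the 12 arrays. Background was set for each array at the 95th percentile of its 612 negative control probe sets, which ran from 6.32 to 7.12. A gene at or below that line on every array of a group has only a bound there, given as "at least N-fold" against the line. All 7 basal breast epithelial markers with a named probe set were above background on every array of all 3 groups, as were all 5 general epithelial markers. Of the 7 basal markers, 4 were lower in the co-culture and none higher. Of 12 luminal markers, 5 were above background on every co-culture array, 6 on every PIK3CA E545K and 6 on every HER2 L755S array. Among 7 luminal markers tested, 3 were higher and 3 lower. None of 7 endothelial and none of 4 adipocyte markers were above background on all arrays of a group. Of 10 blood cell markers, CD14 and CD68 were above it in both compared groups, and PTPRC, CD3E and CD3D were not. Of 9 fibroblast markers, 4 were above background in both groups, with DCN differing by 0.96 and FBLN1 by -0.70. A mix of 75% HER2 L755S and 25% PIK3CA E545K signal, taken on the linear scale from the single-culture means, would read 15.72 for the complement gene C3, 12.68 for FBXO32 and 11.18 for the receptor gene ERBB3. The co-culture means were 13.13, 7.70 and 9.43, so these genes, picked after their values were seen, lay far below the labelled mix. For CCND2 the mix would read 14.95 and the co-culture mean was 15.37. Genes dimmer in HER2 L755S cells lay on either side of the mix. HMGCS1 read 14.85 against 13.53 and BUB1 10.25 against 9.10, while IGFBP2 read 8.47 against 9.01. Over all genes tested, the median correlation of co-culture arrays was 0.986 with PIK3CA E545K and 0.949 with HER2 L755S arrays. The cause was not tested. Probe sets for ERBB2, the HER2 gene, and PIK3CA were not analysed here, so no signal was set against the genotypes.

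More genes were lower than higher in the co-culture, and most of the changes were modest in size. Of 12758 genes tested in limma, 1413 (11.1%) were higher in the co-culture and 1860 (14.6%) lower at a Benjamini-Hochberg adjusted p under 0.05. By at least 1 on the log2 scale, 189 genes (1.48%) were higher and 249 (1.95%) lower. The 4 co-culture arrays lay above all 4 PIK3CA E545K arrays for 1516 genes (11.9%) and below them for 2100 (16.5%). Among the genes that passed by at least 1, this separation held for 186 of 189 higher and 247 of 249 lower genes. Small differences made up a large share: 602 of the higher and 729 of the lower genes differed by less than 0.5. Differences of at least 2 were seen in 30 higher and 21 lower genes, and of at least 3 in 5 and 3. Over all genes tested the median difference was -0.017. RNA of both lines is mixed in a co-culture, so a smaller share of cells of a line and less RNA per cell cannot be told apart in these values.

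**Figure D1:**
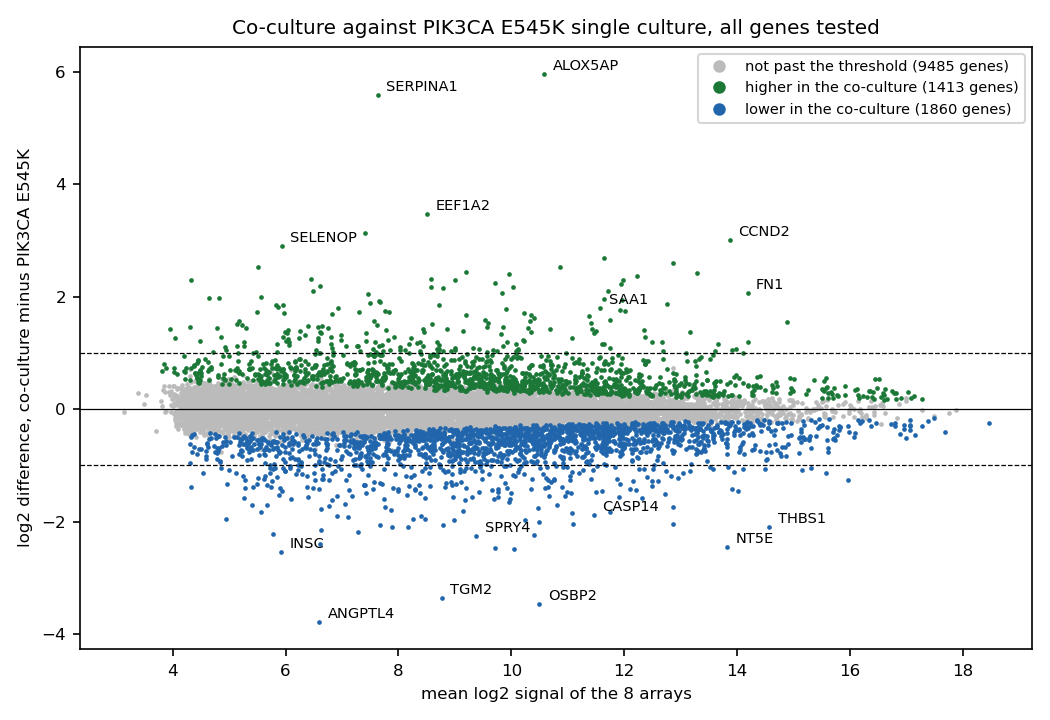
Log2 difference (co-culture minus PIK3CA E545K) against the mean log2 signal of the 8 compared arrays, 1 point for each of the 12758 genes tested. Green points are the 1413 higher and blue points the 1860 lower genes at an adjusted p under 0.05, dashed lines mark a difference of 1, and ALOX5AP and SERPINA1 lie apart from the other higher genes.

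Genes with the largest increases belonged to several functional groups, among them leukotriene synthesis, protease inhibition, cell cycle entry, detoxification and epithelial differentiation. ALOX5AP encodes the protein that presents arachidonic acid to 5-lipoxygenase at the start of leukotriene synthesis. Its signal was 13.89, 13.58, 13.69 and 13.08 on co-culture replicates 1 to 4 and 7.42, 7.71, 7.57 and 7.75 on PIK3CA E545K replicates 1 to 4. All co-culture arrays were far above the PIK3CA E545K arrays and within or near the range of HER2 L755S cells alone, 13.40 to 13.85. The difference of 5.95 ± 0.14 (SE) corresponds to 61.9-fold more signal (limma adjusted p 1.24e-18). SERPINA1, the gene of alpha-1 antitrypsin, read 10.33, 10.40, 10.52 and 10.45 in the co-culture. PIK3CA E545K arrays gave 4.88, 4.97, 4.47 and 5.08, all below background, and HER2 L755S arrays a mean of 7.63. Co-culture signal was at least 16.8-fold above PIK3CA E545K cells (limma adjusted p 3.27e-16), and all its arrays also lay above both single cultures.

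EEF1A2, a tissue-restricted form of the translation elongation factor 1A, read 10.01, 10.55, 10.23 and 10.16 against 6.89, 6.78, 6.48 and 6.93 in PIK3CA E545K cells, a difference of 3.47 ± 0.14 (SE). The widely expressed EEF1A1 differed by -0.02 and did not pass. CCND2, encoding the cell cycle regulator cyclin D2, reached 15.19, 15.45, 15.51 and 15.34 in the co-culture and 12.47, 12.27, 12.20 and 12.55 in PIK3CA E545K cells. Its arrays were tight within each group, and the difference was 3.00 ± 0.08 (limma adjusted p 3.35e-17). FAXDC2 and SELENOP, the latter encoding the selenium carrier selenoprotein P, were below background on all PIK3CA E545K arrays. Their co-culture signals, 8.71 to 9.38 and 7.19 to 7.51, were at least 6.09-fold and at least 2.04-fold above the line. ECHDC3, a mitochondrial protein gene, was above background on 3 of 4 co-culture arrays and on none of PIK3CA E545K cells, with co-culture values of 6.61 to 6.99.

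EFNA1 encodes ephrin-A1, a membrane-bound ligand of EPHA receptors. It read 12.76, 12.91, 13.28 and 12.99 in the co-culture and 10.51, 10.27, 10.55 and 9.87 in PIK3CA E545K cells, a rise of 2.69 ± 0.14, with HER2 L755S arrays in between at 11.49 to 12.01. EGR3, an early growth response transcription factor, rose by 2.43 ± 0.31, with 7.58, 7.95, 8.45 and 7.94 in PIK3CA E545K cells and 10.15, 10.49, 10.38 and 10.64 in the co-culture. Spread was wide in the HER2 L755S arrays, 7.50 to 9.90, and all co-culture arrays lay above them. AKR1C1, an aldo-keto reductase of steroid and aldehyde metabolism, rose by 2.53 ± 0.11, and FTL, the ferritin light chain, by 2.36 ± 0.13. S100A8, a calcium-binding protein of inflamed epithelium and myeloid cells, read 14.29, 14.53, 14.42 and 14.76 in the co-culture. PIK3CA E545K arrays varied more, at 12.89, 11.78, 12.45 and 11.19, and the difference was 2.42 ± 0.22. CHRNA9, a nicotinic acetylcholine receptor subunit, was below background on all 8 single-culture arrays and read 7.89, 7.83, 7.67 and 7.04 in the co-culture, at least 2.38-fold above PIK3CA E545K cells (limma adjusted p 1.14e-08).

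Decreases were led by genes of lipid handling, crosslinking, membrane traffic and growth factor feedback. ANGPTL4, an inhibitor of lipoprotein lipase, read 8.69, 8.55, 8.22 and 8.49 in PIK3CA E545K cells and 4.56, 4.97, 4.77 and 4.53 in the co-culture, where all 4 arrays were below background. PIK3CA E545K signal was at least 3.89-fold higher (limma adjusted p 2.82e-12). HER2 L755S arrays were as dim, 3.62 to 4.46. OSBP2, an oxysterol-binding protein, read 12.17, 12.47, 12.08 and 12.21 in PIK3CA E545K cells and 9.99, 8.65, 9.07 and 7.34 in the co-culture, and fell by 3.47 ± 0.32 on the log2 scale. TGM2, tissue transglutaminase, read 10.64, 10.58, 10.22 and 10.36 and 8.13, 7.35, 6.97 and 5.87 in the same order and fell by 3.37 ± 0.29. Both genes separated the groups fully, yet their co-culture arrays were spread over more than 2 log2 units, and TGM2 was above background on 3 of those 4.

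MALL, a membrane raft protein, fell by 2.49 ± 0.20, with 11.42, 11.33, 11.27 and 11.15 in PIK3CA E545K cells and 9.34, 8.96, 8.53 and 8.39 in the co-culture. IGFBP2, which binds insulin-like growth factors, fell by 2.47 ± 0.23, with 10.81, 10.86, 10.96 and 11.16 in PIK3CA E545K cells and 8.67, 8.51, 8.33 and 8.39 in the co-culture. NT5E encodes CD73, the enzyme that makes extracellular adenosine from AMP. It read 15.05, 15.11, 15.09 and 14.96 in PIK3CA E545K cells and 13.26, 12.72, 12.76 and 11.62 in the co-culture, and fell by 2.46 ± 0.27. TINAGL1, a matricellular protein, fell by 2.23 ± 0.17. Cytoskeletal and neuronal-type genes MYPN (a sarcomere protein), LIMCH1 (an actomyosin regulator), DCLK1 (a microtubule-associated kinase) and MCF2 (a guanine nucleotide exchange factor) were above background on all PIK3CA E545K arrays and on no co-culture array. PIK3CA E545K signal was at least 3.58-fold higher for LIMCH1, 2.43-fold for MYPN, 2.28-fold for MCF2 and 1.28-fold for DCLK1. AOX1, aldehyde oxidase, fell by 2.10 ± 0.25, and its co-culture replicate 4 read 5.98 against 7.07 to 7.21 on the other arrays, and was the array not above background. SULT1E1, the estrogen sulfotransferase, fell by 2.10 ± 0.24, to 8.01, 6.53, 6.90 and 7.06 from 9.46, 9.42, 8.59 and 9.44. For SULT1E1 the co-culture lay below both single cultures, since HER2 L755S arrays read 9.77 to 10.50.

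**Figure D2:**
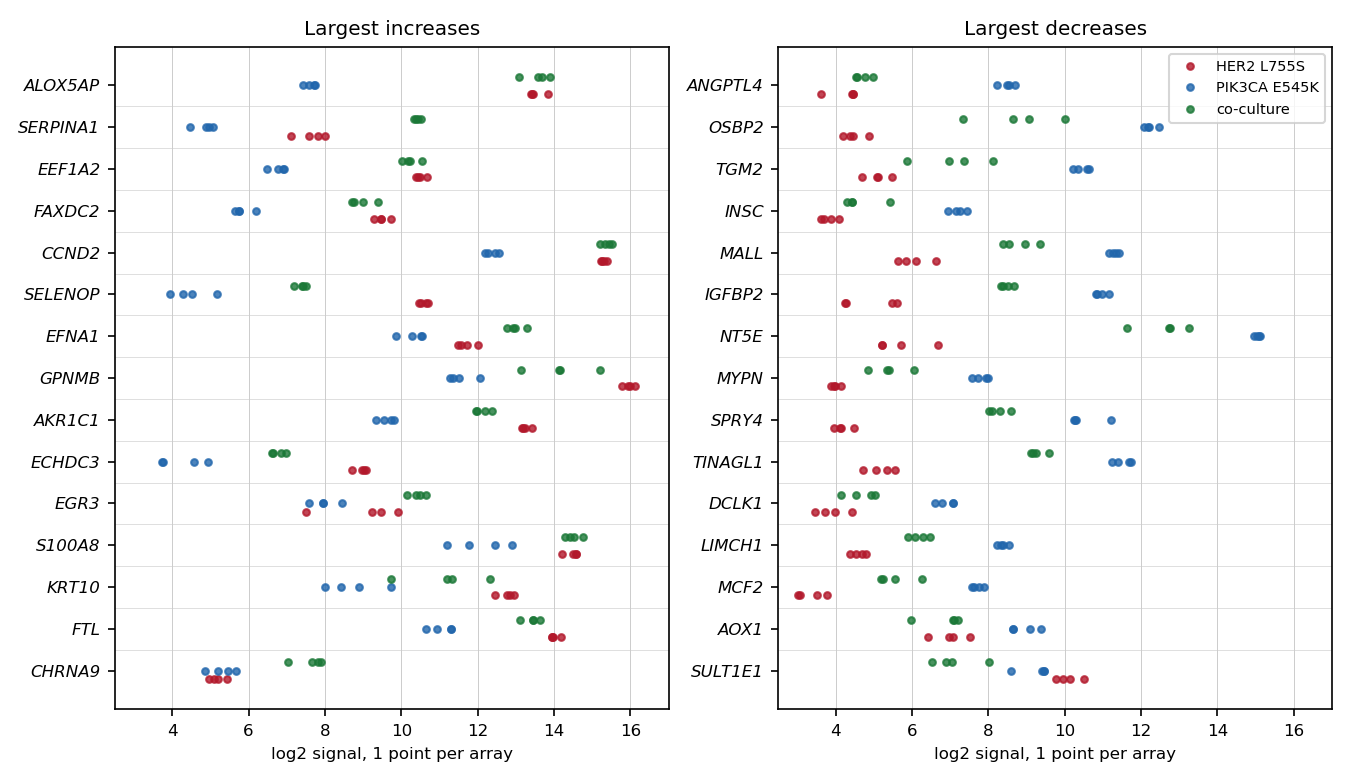
Log2 signal on each array (1 point per array, 4 per group) for the 15 largest increases and the 15 largest decreases whose co-culture and PIK3CA E545K arrays did not overlap. Co-culture points (green) lie near those of HER2 L755S cells (red) for ALOX5AP, CCND2 and EEF1A2, above both single cultures for SERPINA1, EFNA1 and CHRNA9, and below both for SULT1E1.

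Members of 40 gene lists, 832 distinct genes, were counted in each direction, to be read against 11.1% higher and 14.6% lower among all genes tested. The largest shares of higher members were in antigen presentation, FOXO targets, chemokines and the NF-kB response, complement and iron handling. The complement share includes C1R, C1S and CFI, which were above background on no array of either group. Mitosis, integrins and laminins, ERK output, EGFR family, proteases and their inhibitors, and glycolysis had the largest shares of lower members. Translation elongation, with 1 of 10 in each direction, and squamous differentiation, with 1 of 17 higher and 3 of 17 lower, lay near the background. The interferon response, eicosanoid, IL1 family, IGF axis and p53 target lists lay not far from it either. Nothing is read from the counts of these lists, and only some of their members are described, one by one.

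**Figure D3:**
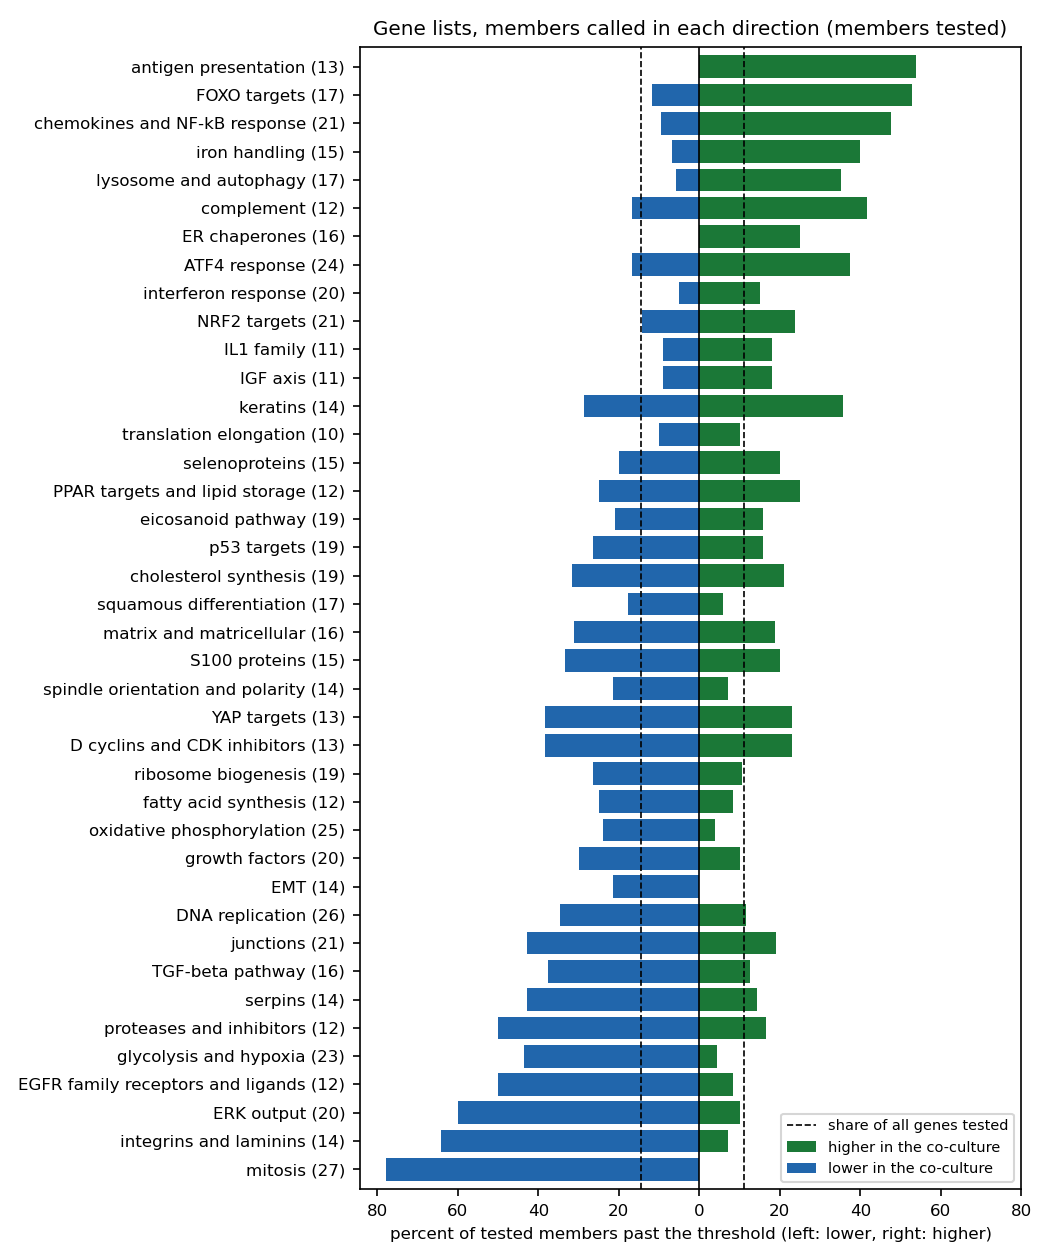
Percent of tested members of each of 40 gene lists that were higher (green, right) or lower (blue, left) in the co-culture at an adjusted p under 0.05, with the number tested in parentheses. Dashed lines mark 11.1% and 14.6%, the shares of all genes tested; mitosis reaches 77.8% lower and antigen presentation 53.8% higher.

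Receptors and ligands of the EGFR family fell more often than they rose in the co-culture. Of 12 members tested, 6 fell and 1 rose (2 without co-culture replicate 1 and under the other scalings), with a list median of -0.19. EPGN, the gene of the ligand epigen, read 11.63, 11.65, 11.55 and 11.82 in PIK3CA E545K cells and 9.80, 9.96, 9.76 and 10.31 in the co-culture, and fell by 1.70 ± 0.12 (limma adjusted p 7.03e-10). Transforming growth factor alpha, encoded by TGFA, fell by 1.37 ± 0.19, and the neuregulin NRG4 by 0.96 ± 0.18. HBEGF, heparin-binding EGF, read 12.14, 11.95, 13.01 and 11.44 and 11.38, 11.14, 10.67 and 11.45 in the same order. PIK3CA E545K replicate 4 overlapped the co-culture range, and the gene fell by 0.97 ± 0.25 (limma adjusted p 0.00618). With a robust variance estimate it did not pass (limma adjusted p 0.0647). EGFR itself read 14.02, 14.19, 14.07 and 14.17 and 13.55, 13.46, 13.57 and 13.44, and it fell by 0.61 ± 0.08 with no overlap between arrays. ERBB3, a partner of HER2 with weak kinase activity, rose by 0.62 ± 0.14, with co-culture values of 8.99, 9.26, 9.71 and 9.76 against 8.79, 8.80, 8.76 and 8.90; HER2 L755S arrays read 11.40 to 11.67.

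Transcripts that ERK activity raises fell in 12 of 20 tested members and rose in 2, with a median of -0.64 against -0.017 over all genes. Feedback inhibitors were among them. SPRY4, a Sprouty protein, read 10.30, 10.27, 11.22 and 10.24 in PIK3CA E545K cells and 8.60, 8.30, 8.10 and 8.02 in the co-culture, and it fell by 2.25 ± 0.20. DUSP6, the phosphatase of ERK in the cytoplasm, read 14.73, 14.60, 15.06 and 14.57 and 13.49, 13.48, 12.93 and 13.24, and it fell by 1.45 ± 0.16 (limma adjusted p 5.88e-07). HER2 L755S cells alone were far dimmer for both, at 3.96 to 4.49 and 5.61 to 6.46, and below background on every array. PHLDA1, a pleckstrin homology domain protein induced by growth factors, fell by 2.04 ± 0.13, and CCND1, the gene of cyclin D1, by 1.51 ± 0.12. The members that rose were DUSP5 (0.92) and LIF, the latter a cytokine above background on 1 co-culture array and on no PIK3CA E545K array, with no fold given. EGR1 (-0.07), FOSL1 (-0.20) and ETV5 (-0.31) did not pass. FOXO targets rose in 9 of 17 tested members and fell in 2, with a median of 0.63. FBXO32, a muscle-atrophy ubiquitin ligase, was below background on all PIK3CA E545K arrays (5.26 to 5.78) and read 7.40, 7.50, 7.62 and 8.28 in the co-culture. It was at least 2.53-fold above the line there and 12.93 to 13.28 in HER2 L755S cells. BCL6, a transcriptional repressor, rose by 1.95 ± 0.16, CITED2, a transcriptional co-regulator, by 1.77 ± 0.12 and IRS2, an adaptor of the insulin receptor, by 1.75 ± 0.18. Their co-culture means were 12.62, 10.80 and 8.65, below the HER2 L755S means of 14.19, 12.88 and 10.17. The part of mixing in these increases was not tested. RICTOR, a subunit of mTOR complex 2, fell by 0.55 and CCNG2, a cyclin of arrested cells, by 0.75.

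**Figure D4:**
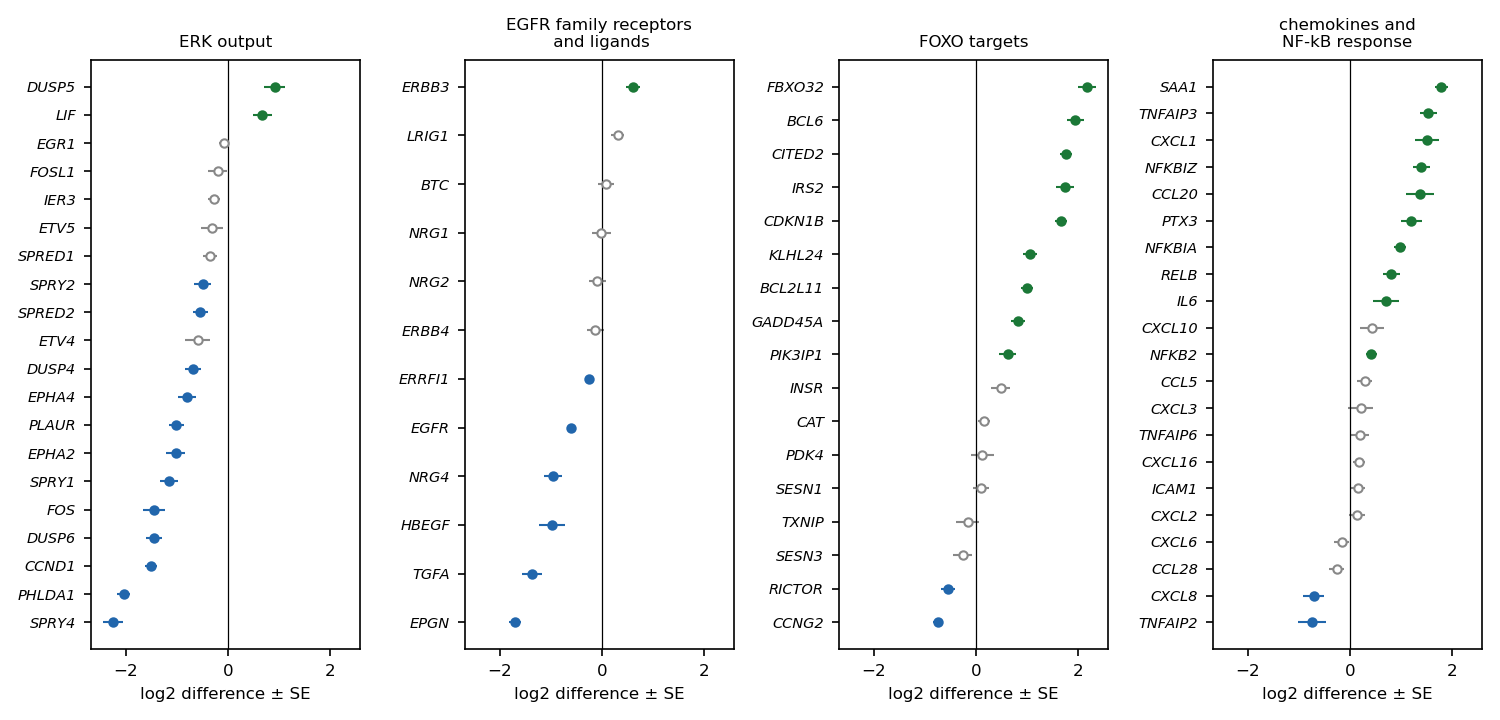
Log2 difference (co-culture minus PIK3CA E545K) with its standard error for each tested member of 4 gene lists; green and blue points passed as higher and lower, open grey points did not pass. Of the tested members, 12 of 20 in ERK output and 6 of 12 in the EGFR family fell, and 9 of 17 FOXO targets and 10 of 21 chemokine and NF-kB response genes rose.

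Mitosis genes fell, and genes of the D cyclins and their inhibitors moved both ways. Among 13 D cyclins, partner kinases and CDK inhibitors, CCND2, CDKN1B and CDK4 rose and 5 fell. CDKN1B, encoding the inhibitor p27, read 10.10, 9.88, 10.10 and 10.04 in the co-culture and 8.33, 8.17, 8.35 and 8.59 in PIK3CA E545K cells, a rise of 1.67 ± 0.11 (limma adjusted p 3.67e-10). CDK6, a partner kinase of D cyclins, fell by 1.16 ± 0.14, whereas its relative CDK4 differed by 0.39. CDKN1A, the inhibitor p21, differed by -0.05 and did not pass. Mitosis genes fell in 21 of 27 tested members and rose in none, with a median of -0.57. ANLN, a scaffold of the cleavage furrow, read 14.60, 14.72, 14.64 and 14.52 in PIK3CA E545K cells and 13.34, 13.20, 13.18 and 13.09 in the co-culture, and it fell by 1.42 ± 0.09. BIRC5, survivin, fell by 0.95 ± 0.18, CCNB1, cyclin B1, by 0.76 ± 0.15 and the checkpoint kinase gene BUB1 by 0.75 ± 0.15. HER2 L755S means were lower still, 8.10 for ANLN, 4.28 for BIRC5, 6.54 for CCNB1 and 5.72 for BUB1. BIRC5 and BUB1 were above background on no HER2 L755S array. KIF11 (0.15) and TOP2A (0.06) did not pass. DNA replication genes fell in 9 of 26 and rose in 3, and the lower count was 5 without PIK3CA E545K replicate 1. The higher count was 0 without co-culture replicate 2 or 3 or PIK3CA E545K replicate 1, 2 or 3, and 1 without co-culture replicate 1 or 4 or with the replicate block. RRM2, a subunit of ribonucleotide reductase, read 11.73, 11.80, 11.64 and 11.72 and 10.20, 10.52, 10.19 and 10.09 and fell by 1.47 ± 0.14. PCNA, the replication clamp, differed by -0.14 and did not pass.

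Glycolysis and hypoxia genes fell in 10 of 23 tested members and rose in 1 (2 without co-culture replicate 1). PGAM1, phosphoglycerate mutase, fell by 0.67 ± 0.08, P4HA1, a collagen prolyl hydroxylase subunit, by 0.61 ± 0.11 and PFKP, a phosphofructokinase, by 0.55 ± 0.08. SLC2A3, a glucose transporter, was above background on 2 of 4 co-culture arrays and on no PIK3CA E545K array. Of 25 oxidative phosphorylation subunits, 6 fell and 1 rose. SDHC, a membrane subunit of succinate dehydrogenase, fell by 1.02 ± 0.17 and its catalytic subunit gene SDHA by 0.56 ± 0.11, while CYC1, cytochrome c1, rose by 0.61 ± 0.09. Ribosome biogenesis genes rose in 2 of 19 (1 under some alternatives) and fell in 5, led by RRS1 (-0.71) and NOP16 (-0.61).

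In the chemokine and NF-kB response list, 10 of 21 tested members rose and 2 fell, with a median of 0.43. TNFAIP3, the A20 protein that limits NF-kB signalling, read 15.20, 15.87, 15.83 and 15.70 in the co-culture and 14.40, 13.71, 14.65 and 13.68 in PIK3CA E545K cells, a rise of 1.54 ± 0.17 (limma adjusted p 5.83e-07). CXCL1, a neutrophil-attracting chemokine, read 8.65, 9.62, 9.92 and 9.18 and 7.93, 7.33, 8.45 and 7.61, a rise of 1.51 ± 0.24. NFKBIZ, a nuclear NF-kB cofactor, rose by 1.41 ± 0.16, with 12.63, 13.18, 13.34 and 13.07 against 11.78, 11.20, 12.22 and 11.40. PIK3CA E545K replicates 1 and 3 were the higher arrays of their group for all 3 genes, and no array overlapped with the co-culture. SAA1, an acute phase protein, rose by 1.80 ± 0.13 to 12.29 to 12.62, below the 16.06 to 16.30 of HER2 L755S cells. CXCL8 (-0.71) and TNFAIP2 (-0.75) fell. The count of members that fell was 0 without co-culture replicate 4 or PIK3CA E545K replicate 3, and 1 without any other single array. CXCL2 (0.14), CXCL3 (0.21) and ICAM1 (0.17) did not pass.

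Promoters of these genes, taken from RefSeq on GRCh38.p14 from 250 bases before to 50 bases after the start site, were searched for the NF-kB motif. The motif is GGG, any 2 bases, then TTTCC, read on both strands. It was found in 6 of the 8 promoters on hand among the members that rose (CXCL1, CCL20, IL6, TNFAIP3, NFKBIA and NFKBIZ) and in 3 of 7 among those that did not pass. Over all genes tested, 2.13% of 10464 promoters held it. The list was drawn up from known NF-kB targets, so these shares describe it and are no test. Other lists searched for a motif, with letters given below, had fewer matches in most cases. The FOXO motif was in 1 of 7 FOXO targets that rose. The AP-1 motif was in 1 of 10 ERK output genes and 1 of 7 integrin and laminin genes that fell. The E2F motif was in 1 of 17 mitosis and 2 of 8 DNA replication genes that fell, and in 3 of 3 replication genes that rose. The promoters of TNFAIP3, CXCL1 and NFKBIZ are shown because the list turns on these genes, in gene direction, with the motif in capitals. They lie at chr6:137867009-137867308 (plus strand) for TNFAIP3, with matches starting at -67 and -55 from the start site, chr4:73869143-73869442 (plus strand) for CXCL1, with a match at -79, and chr3:101827740-101828039 (plus strand) for NFKBIZ, with a match at -223.
TNFAIP3: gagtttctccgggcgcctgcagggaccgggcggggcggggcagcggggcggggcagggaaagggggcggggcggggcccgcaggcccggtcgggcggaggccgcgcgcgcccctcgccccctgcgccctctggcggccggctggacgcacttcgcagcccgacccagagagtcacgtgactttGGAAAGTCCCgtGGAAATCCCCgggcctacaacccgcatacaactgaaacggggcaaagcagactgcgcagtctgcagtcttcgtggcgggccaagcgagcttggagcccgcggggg
CXCL1: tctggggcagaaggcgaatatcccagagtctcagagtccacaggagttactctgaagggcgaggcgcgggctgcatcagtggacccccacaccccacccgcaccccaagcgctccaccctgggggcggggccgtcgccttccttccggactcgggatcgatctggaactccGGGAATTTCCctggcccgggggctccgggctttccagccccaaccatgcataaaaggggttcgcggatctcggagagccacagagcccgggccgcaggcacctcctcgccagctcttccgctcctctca
NFKBIZ: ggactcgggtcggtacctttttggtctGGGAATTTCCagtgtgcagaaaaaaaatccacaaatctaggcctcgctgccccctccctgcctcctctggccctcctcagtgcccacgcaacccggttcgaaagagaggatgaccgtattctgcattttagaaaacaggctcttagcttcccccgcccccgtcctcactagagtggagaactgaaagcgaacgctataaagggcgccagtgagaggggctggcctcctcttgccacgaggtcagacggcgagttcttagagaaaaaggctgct

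Of 11 IL1 family members tested, IL1B and IL1R1 rose and CASP1 fell, and 2 fell with the replicate block. IL1B, the cytokine interleukin 1 beta, read 12.39, 13.47, 13.29 and 12.59 in the co-culture, above 11.22, 10.62, 11.60 and 10.57 in PIK3CA E545K cells and 10.21 to 10.94 in HER2 L755S cells, a rise of 1.93 ± 0.22. IL1A (0.07) did not pass, and IL1RN was above background on no array of either group. Complement genes rose in 5 of 12 and fell in 2. C3, the central complement component, read 12.74, 13.09, 13.33 and 13.34 and 11.33, 10.61, 11.10 and 10.30, a rise of 2.29 ± 0.16, with HER2 L755S arrays at 16.09 to 16.17. C1R, C1S and CFI passed too but were above background on no array of either group, so no fold is given for them; all 4 HER2 L755S arrays were above it for each. S100A9 rose with its partner S100A8, by 2.09 ± 0.19, and S100A7, psoriasin, by 2.30 ± 0.31. For S100A7 the co-culture arrays, 8.84, 10.36, 10.28 and 9.42, lay above both single cultures, 8.20, 7.29, 7.68 and 6.49 in PIK3CA E545K and 6.04 to 6.78 in HER2 L755S cells. Members of the S100 family resemble each other, and which of them gave a signal is uncertain. In the same family 5 of 15 members fell (3 without a variance trend), S100A14 by 0.51 among them. IRF1, an interferon regulatory factor, rose by 1.93 ± 0.16 with 8.46, 8.80, 8.63 and 8.57 against 6.72, 6.66, 6.77 and 6.59. Of 20 interferon response genes 3 rose and 1 fell (2 without PIK3CA E545K replicate 3 and with the replicate block). OAS1 (-0.05) did not pass, and ISG15 and MX1 were above background on no array of either group. Antigen presentation genes rose in 7 of 13 and fell in none, each by a small amount. HLA-F rose by 0.52 ± 0.10, the peptide transporter TAP1 by 0.51 ± 0.13 and its partner TAPBP by 0.46 ± 0.10. HLA genes resemble each other too, and HLA-C (0.01) did not pass.

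Adhesion genes fell more often than they rose. Integrins and laminins fell in 9 of 14 tested members and rose in 1, with a median of -0.52, and the count of 9 stood under all 17 alternatives. ITGA2, the collagen-binding alpha 2 integrin, read 13.09, 13.14, 13.22 and 13.28 in PIK3CA E545K cells and 12.11, 11.72, 11.89 and 11.54 in the co-culture, and it fell by 1.36 ± 0.12 (limma adjusted p 1.58e-08). ITGA3, of the laminin receptor, fell by 0.89 ± 0.09, ITGB5 by 0.84 ± 0.15 and ITGA5, of the fibronectin receptor, by 0.73 ± 0.14. In HER2 L755S cells alone the means were lower still, 8.56 for ITGA2, 13.66 for ITGA3, 5.64 for ITGB5 and 9.55 for ITGA5. ITGB5 was above background on no HER2 L755S array. The part of mixing in these decreases was not tested. The laminin gene LAMB1 rose by 0.49. Junction genes fell in 9 of 21 and rose in 4. GJB2, a gap junction connexin, fell by 1.57 ± 0.18, and the tight junction claudins CLDN4 and CLDN7 by 1.36 ± 0.19 and 1.30 ± 0.19. CLDN1 (0.90) and the desmosomal cadherins DSC3 (0.91) and DSG3 (0.44) rose. Of 14 keratins 5 rose and 4 fell, and 3 rose without co-culture replicate 1 or a variance trend. KRT8 rose by 1.66 ± 0.11, with 12.35, 12.13, 12.28 and 12.07 against 10.63, 10.81, 10.41 and 10.33, and KRT7 fell by 1.14 ± 0.08; both belong to simple epithelia. KRT5, of the basal layer, fell by 0.31. In the EMT list 3 of 14 members fell (21.4%, against 14.6% of all genes tested) and none rose, so nothing is read from the count. They were TWIST2, SNAI1, above background on no array of either group, and the epithelial marker EPCAM (-0.37). EPCAM arrays overlapped, and it did not pass under 6 of 17 alternatives. CDH1 (0.01) and VIM (-0.15) did not pass.

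Matrix genes went both ways. FN1, fibronectin, read 15.34, 15.20, 15.31 and 15.03 in the co-culture, above 13.13, 13.02, 13.24 and 13.23 in PIK3CA E545K cells and far above 5.45 to 6.44 in HER2 L755S cells. The rise was 2.07 ± 0.14 (limma adjusted p 4.54e-10), and co-culture arrays lay above every array of both lines. FN1 was above background on no HER2 L755S array. THBS1, thrombospondin 1, went the other way, from 15.47, 15.83, 15.49 and 15.68 to 14.33, 13.38, 13.47 and 12.92, and it fell by 2.09 ± 0.22. COL8A1, a short-chain collagen, fell by 1.61 ± 0.26. In all, 5 of 16 matrix genes fell and 3 rose, and 3 fell without co-culture replicate 2 or 4. CCN2, connective tissue growth factor, rose by 1.24 ± 0.19 with 11.07, 10.89, 10.46 and 10.85 against 9.35, 9.76, 9.05 and 10.17. Of 13 YAP targets, 3 rose and 5 fell (3 without co-culture replicate 4). CCN2, CCN1 and the LIM protein gene AJUBA (0.92) rose, and NT5E, AMOTL1, WWC1, MYOF and F3 fell. F3, tissue factor, did not pass without co-culture replicate 2, 3 or 4 or PIK3CA E545K replicate 2, 3 or 4, nor with a robust estimate or without a variance trend (limma adjusted p up to 0.157). Proteases and inhibitors fell in 6 of 12 (3 without PIK3CA E545K replicate 3 or without a variance trend) and rose in 2. The higher count was 1 without co-culture replicate 4 or PIK3CA E545K replicate 2 or 3. TIMP3, a metalloprotease inhibitor, fell by 1.10 ± 0.10, PLAUR, the urokinase receptor, by 1.01 ± 0.14 and PLAT, tissue plasminogen activator, by 0.73 ± 0.17. PLAU, urokinase itself, rose by 0.70 ± 0.11. Serpins fell in 6 of 14 and rose in 2. SERPINA3, antichymotrypsin, rose by 1.27 ± 0.15, and SERPINE2, a protease nexin, fell by 1.25 ± 0.18.

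Secreted growth factors fell in 6 of 20 and rose in 2. The higher count was 1 without any one array other than co-culture replicate 1, and with the replicate block. WNT7A read 9.29, 8.97, 9.33 and 9.33 in PIK3CA E545K cells and 6.94, 7.83, 7.22 and 7.11 in the co-culture, and it fell by 1.96 ± 0.19. FGFBP1, which releases fibroblast growth factors from the matrix, fell by 1.40 ± 0.28, VEGFC, a lymphangiogenic factor, by 1.21 ± 0.17 and PDGFA by 0.92 ± 0.12. VEGFA (-0.24) did not pass. In the TGF-beta list 6 of 16 fell and 2 rose. Its ID genes, inhibitors of basic helix-loop-helix factors, moved apart: ID1 fell by 1.38 ± 0.23 and ID3 rose by 1.16 ± 0.22. INHBA, the activin A subunit, rose by 0.78 ± 0.21.

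Eicosanoid genes moved both ways. ALOX5AP rose as given above. LTA4H, which makes leukotriene B4, rose by 0.46, whereas PTGES, PLA2G4A and PTGS1 of prostaglandin synthesis fell. PTGES, a prostaglandin E synthase, read 12.29, 12.17, 12.34 and 12.15 in PIK3CA E545K cells and 10.75, 10.98, 10.77 and 10.58 in the co-culture, and it fell by 1.47 ± 0.15 (limma adjusted p 1.25e-07). PLA2G4A, the phospholipase that releases arachidonic acid, fell by 0.90 ± 0.15. PTGS1, cyclooxygenase 1, was above background on all PIK3CA E545K arrays and on no co-culture array, at least 1.58-fold, and PTGS2 (0.28) did not pass. In all, 3 of 19 members rose and 4 fell. Cholesterol synthesis genes fell in 6 of 19 and rose in 4, and 2 rose without co-culture replicate 2 or 3 or PIK3CA E545K replicate 1. FDPS, farnesyl diphosphate synthase, read 15.77, 15.61, 15.70 and 15.72 and 14.86, 14.59, 14.63 and 14.39, and it fell by 1.08 ± 0.09, and PMVK, of the mevalonate steps, fell by 0.68 ± 0.10. HMGCS1, HMG-CoA synthase, fell by 0.59 ± 0.10, and SQLE, squalene epoxidase, did not pass (-0.07). CD36, a fatty acid transporter, was above background on all 4 co-culture arrays (6.59 to 7.33) and on 1 PIK3CA E545K array, and rose by 0.72 ± 0.17, against 11.94 to 12.13 in HER2 L755S cells. PPAR targets rose in 3 of 12 and fell in 3.

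Detoxification genes of the NRF2 list rose in 5 of 21 and fell in 3. The members that rose were AKR1C1, AKR1C2, AKR1C3, FTL and UGDH. AKR1C2 read 13.43, 12.86, 12.77 and 13.18 against 10.91, 10.61, 10.89 and 10.92, a rise of 2.23 ± 0.13, and AKR1C3 rose by 1.76 ± 0.11. AKR1C genes are near copies of each other, and their signals may not be separate, which was not tested. The RefSeq promoters of AKR1C1 and AKR1C2 share 93.5% of aligned bases and those of AKR1C1 and AKR1C3 73.5%. Promoter likeness does not bear on what the probes read. Glutathione and thioredoxin genes of the list, GCLM (0.16) and TXNRD1 (0.11), did not pass, NQO1, a quinone reductase, fell by 0.45, and HMOX1 was above background on no array of either group. Iron handling genes rose in 6 of 15 and fell in 1, STEAP1. STEAP1 was above background on all PIK3CA E545K arrays and on no co-culture array, at least 1.09-fold, and did not pass without co-culture replicate 3. FTL read 13.11, 13.46, 13.64 and 13.45 in the co-culture and 10.65, 11.31, 11.30 and 10.94 in PIK3CA E545K cells, and CYBRD1, a ferric reductase, rose by 0.69 ± 0.10. GPX4, the lipid peroxide-reducing selenoenzyme, rose by 0.85 ± 0.08 while GPX1 fell by 0.40 ± 0.10. Lysosome and autophagy genes rose in 6 of 17 and fell in 1, led by SQSTM1, the p62 cargo receptor, at 1.07 ± 0.09. GPNMB, a lysosomal and melanosomal glycoprotein, rose by 2.60 ± 0.25.

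Genes of amino acid and protein folding stress rose more often than they fell. ATF4 response genes rose in 9 of 24 and fell in 4. Without co-culture replicate 4, 5 rose, and without a variance trend 2 fell. PHGDH, the first enzyme of serine synthesis, read 12.15, 11.61, 12.18 and 12.64 in the co-culture, above 10.75, 10.91, 10.72 and 10.76 in PIK3CA E545K and 7.87 to 8.81 in HER2 L755S cells, a rise of 1.36 ± 0.18. ATF4 itself rose by 0.44, while ASNS (0.24) and TRIB3 (-0.07) did not pass. ATF3 and CHAC1 passed as higher with overlapping arrays, and each did not pass under 6 of 17 alternatives. Of 16 ER chaperone genes 4 rose and none fell. HERPUD1, of ER-associated degradation, rose by 1.09 ± 0.12, with 12.30, 12.07, 12.15 and 12.61 against 11.22, 11.09, 11.24 and 11.25. HSPA5, the main ER chaperone, differed by 0.28 ± 0.09 (limma adjusted p 0.0234), with overlapping arrays. It did not pass without co-culture replicate 1 or 4, PIK3CA E545K replicate 2, 3 or 4, or a variance trend (limma adjusted p up to 0.0974). PDIA4 (-0.19) did not pass. Among 19 p53 targets 3 rose and 5 fell, TP53I3, a quinone reductase, by 1.08 ± 0.10. INSC, an adaptor of spindle orientation, was above background on all PIK3CA E545K arrays, 7.14, 6.96, 7.43 and 7.25, and on no co-culture array, 5.42, 4.43, 4.42 and 4.31, at least 1.59-fold (limma adjusted p 4.55e-09).

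Some genes crossed the background line between the compared groups. In 17 genes that passed as higher, all 4 co-culture arrays were above background and no PIK3CA E545K array was, and in 61 genes that passed as lower the reverse held. HER2 L755S cells alone were above background on all arrays for 10 of the 17, on 3 arrays for DLL1, and on none for 6. Those 6 were CHRNA9, the AMPK-related kinase gene NUAK2, the phosphodiesterase gene PDE7B, PPARGC1A, encoding a co-activator of mitochondrial genes, GLT8D2 and BHLHE41. Their co-culture signal was at least 2.38-fold (CHRNA9), 1.93-fold (NUAK2), 1.91-fold (PDE7B), 1.56-fold (PPARGC1A), 1.79-fold (GLT8D2) and 1.43-fold (BHLHE41) above PIK3CA E545K cells. The background line was higher on HER2 L755S arrays, and these genes were picked after their values were seen. Among the 61 lower genes, 57 were below background on every HER2 L755S array as well. STARD13, the gene of a lipid transfer domain protein, and TRMT9B were above it on all 4 of those arrays, so the co-culture was dim where both lines alone were not. PPARG, the adipogenic nuclear receptor, was at least 1.16-fold lower in the co-culture, the phosphatase gene CDC25A at least 1.41-fold, UPP1, uridine phosphorylase, at least 2.89-fold and SPRY1 at least 1.26-fold.

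The 4 co-culture arrays were not equally far from PIK3CA E545K cells. Replicate 4 lay farthest from the PIK3CA E545K mean for 78 of the 189 genes higher by at least 1 and for 97 of the 249 lower genes. Replicate 1 lay nearest for 82 and 114 of them. The median shift of the 189 higher genes was 1.26 on replicate 1 and 1.52 on replicate 4, with replicates 2 and 3 between. This order was chosen for description after the values were seen and has no test. GPNMB read 13.13, 14.16, 14.13 and 15.22 on replicates 1 to 4, against 12.06, 11.29, 11.35 and 11.52 in PIK3CA E545K and 15.78 to 16.11 in HER2 L755S cells. KRT10, a keratin of differentiating epidermis, read 9.74, 11.19, 11.34 and 12.32, and replicate 1 barely cleared PIK3CA E545K replicate 1 at 9.72. OSBP2, TGM2, NT5E and THBS1 had their lowest co-culture value on replicate 4 and their highest on replicate 1. The share of HER2 L755S cells is labelled for the co-cultures together, not per replicate, and its part in this order was not tested. CASP14, an epidermal protease, had the widest co-culture spread among genes that passed by at least 1, 8.77, 11.53, 11.30 and 10.46 against 12.16, 12.24, 12.95 and 12.25, and its replicate 1 was the lowest, so not every gene followed that order. Over the genes that passed by at least 1, the median SD between arrays was 0.232 in the co-culture and 0.209 in PIK3CA E545K cells, and over all genes tested 0.167 and 0.158.

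**Figure D5:**
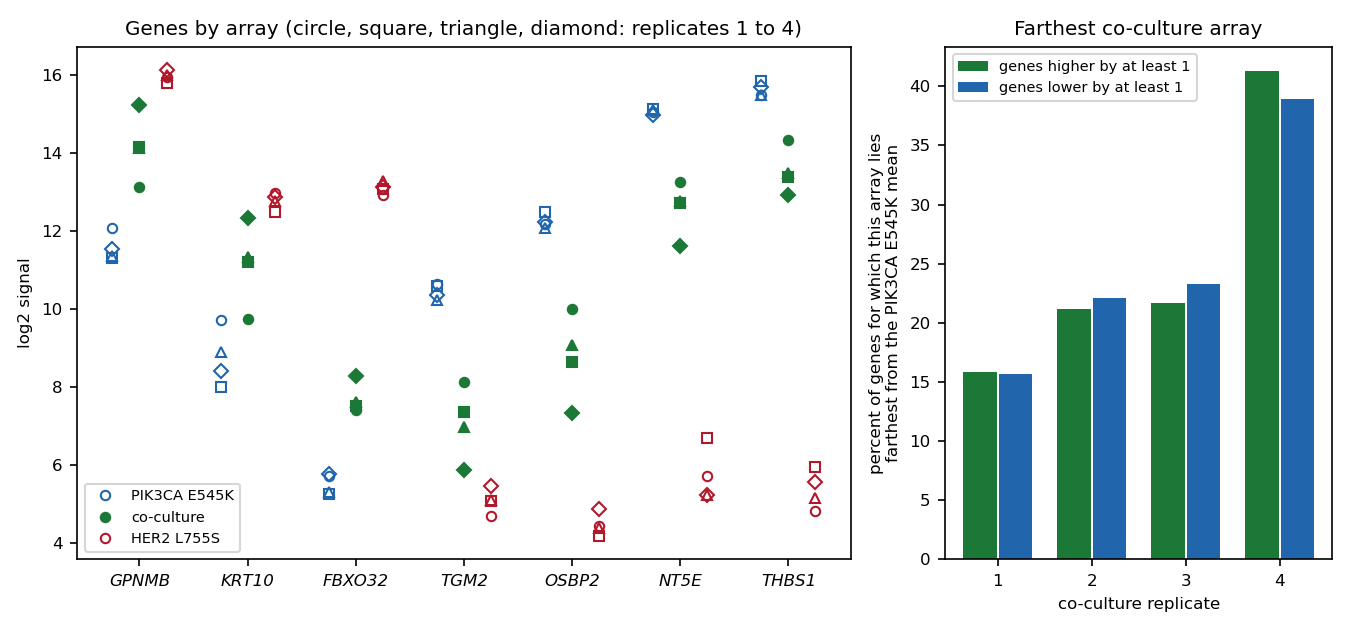
Left, log2 signal of 7 genes on every array, with the replicate number given by the marker; GPNMB and KRT10 are highest and TGM2, OSBP2, NT5E and THBS1 lowest on co-culture replicate 4 (filled diamond). Right, percent of the 189 higher and 249 lower genes for which each co-culture replicate lies farthest from the PIK3CA E545K mean, 41.3% and 39.0% for replicate 4.

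Promoters of the genes that rose and of those that fell by at least 1 were searched for motifs of factors that act in these pathways, with no test of the shares. Promoters were on hand for 154 of the 189 higher and 202 of the 249 lower genes. The AP-1 motif TGANTCA was found in 9.41% of lower and 3.90% of higher genes, against 4.89% over all genes tested. The NF-kB motif was found in 5.84% of higher and 1.98% of lower genes, against 2.13%. The FOXO motif GTAAACA was found in 4.55% and 2.48%, against 2.46%, the E-box CACGTG in 7.14% and 7.92%, against 9.64%, and the E2F motif TTTNGCGC in 1.30% and 0.495%, against 2.83%. N stands for any base, and both strands were searched. A match is a description of the sequence, and the shares rest on few genes, such as 19 lower genes with an AP-1 match and 9 higher genes with an NF-kB match. INSC, OSBP2 and PLAUR, which are named above among the lower genes, each held 1 AP-1 match. Their RefSeq promoters (GRCh38.p14) are printed because the AP-1 share was the higher one among lower genes, in gene direction and with the motif in capitals. They lie at chr11:15112174-15112473 (plus strand) for INSC, with the match at -67, chr22:30764003-30764302 (plus strand) for OSBP2, with the match at -216, and chr19:43670120-43670419 (minus strand) for PLAUR, with the match at -186.
INSC: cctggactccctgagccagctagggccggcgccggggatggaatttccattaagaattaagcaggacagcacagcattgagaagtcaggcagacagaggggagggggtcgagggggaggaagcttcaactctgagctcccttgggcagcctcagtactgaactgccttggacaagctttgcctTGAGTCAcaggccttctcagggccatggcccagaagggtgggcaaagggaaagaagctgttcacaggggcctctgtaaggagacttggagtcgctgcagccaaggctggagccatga
OSBP2: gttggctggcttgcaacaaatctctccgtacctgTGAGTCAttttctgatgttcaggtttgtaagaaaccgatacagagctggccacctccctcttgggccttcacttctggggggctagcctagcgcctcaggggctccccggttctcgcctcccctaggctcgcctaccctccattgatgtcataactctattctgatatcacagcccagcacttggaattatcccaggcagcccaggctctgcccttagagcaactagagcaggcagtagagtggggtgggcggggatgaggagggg
PLAUR: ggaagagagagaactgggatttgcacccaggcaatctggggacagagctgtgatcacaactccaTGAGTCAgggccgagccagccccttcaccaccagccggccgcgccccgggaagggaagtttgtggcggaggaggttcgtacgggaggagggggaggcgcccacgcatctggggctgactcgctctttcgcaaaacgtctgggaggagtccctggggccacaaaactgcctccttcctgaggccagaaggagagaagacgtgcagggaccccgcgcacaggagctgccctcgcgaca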

How the data were processed

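RNA of 12 MCF-10A cultures in 3 groups of 4 was measured on whole-transcript expression arrays. The authors deposited log2 signals, and the submitters' processing notes name Transcriptome Analysis Console as the tool. The version and the normalization are not given in the sources used here. Those values were used as deposited. Of 24351 probe sets 17709 had 1 gene symbol in the platform annotation, giving 17687 genes, with the brightest probe set of 20 genes that have several (10 of these disagree in direction). Genes above the 30th percentile of the array's named probe sets on at least 4 of 12 arrays, 12758, were tested.

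Group means over all 12 arrays were fitted in limma 3.58.1 (R 4.3.3, 9 residual degrees of freedom), with empirical Bayes moderation along the signal trend and Benjamini-Hochberg adjustment over all genes tested. The pipeline was tested on simulated data. The ± values are standard errors of the fit, unless given as SD. With 4 arrays a group, their number limits the precision. "At least N-fold" is the mean of the brighter group over the mean, per array, of the higher of background and the dim signal.

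Comparison, gene lists and rules were chosen with earlier results of these data known. Named are the 15 largest non-overlapping differences in each direction, up to 4 members past the threshold of each list, EGFR and ERBB3, 168 genes in all. Other genes with values were picked after their values were seen. Alternatives were the 8 compared arrays alone, 2 filters, 2 normalizations, 2 variance estimates, the mean of probe sets, a replicate block and leaving out each array.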

Additional observations from a re-analysis of the deposited data

Results flagged for a closer look

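Among 336 groups of 4 arrays (the co-culture and PIK3CA E545K arrays of 168 named genes), 16 had 1 array apart from the other 3 by a gap that took up most of the group's range, past the 95% critical value of Dixon's test. Chance gives about 1 in 20 groups. The causes were not tested.

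In the co-culture, replicate 1 was the high array for INSC (5.42 against 4.43 for the next, gap 0.886 of the range) and HMGCS1 (15.18 against 14.77, 0.873). Replicate 4 was the low array for AOX1 (5.98 against 7.07, 0.891), MCM4, a subunit of the replicative helicase (gap 0.9), and COL8A1 (7.79 against 8.49, 0.838). Replicate 2 was the low array for SDHA (12.02 against 12.34, 0.832).

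Among the PIK3CA E545K arrays, replicates 2 and 3 stood apart for 4 genes each. Replicate 3 was high for SPRY4 (11.22 against 10.30, 0.934), S100A14 (16.08 against 15.94, 0.91) and CASP14 (12.95 against 12.25, 0.893), and low for SULT1E1 (8.59 against 9.42, 0.951). Replicate 2 was low for AKR1C2 (10.61 against 10.89, 0.879), POLR1B (7.46 against 7.72, 0.845), EPCAM (11.03 against 11.21, 0.92) and WNT7A (8.97 against 9.29, 0.887). Replicate 4 was low for MCM4 (10.81 against 10.93, 0.948), and replicate 1 was high for SKIL (9.99 against 9.71, 0.879).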

How the results depend on the processing

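Over the 17 alternatives run, the count of higher genes ranged from 1173 (without co-culture replicate 4) to 1600 (8 compared arrays alone) and of lower genes from 1560 (without PIK3CA E545K replicate 4) to 2161. Counts by at least 1 ranged from 175 to 207 higher and from 215 to 270 lower. All these counts stayed within 1.5 times the reported ones. Centring arrays on their median gave 1561 higher and 1667 lower genes. With the replicate block they were 1444 and 1891, and by at least 1 they were 189 and 249, and no call of a named gene changed, while 5 of 80 list counts moved by over 1.5 times. Without a trend of the spread with signal 10 of the 80 did. Deviations of same-numbered co-culture and PIK3CA E545K arrays correlated at 0.00157 to 0.0327, and those of differently numbered arrays at -0.0842 to 0.112. These ranges overlap, so they cannot settle whether the numbers pair samples. The labels state no shared batch or day for a number, so the main fit had no block. Of 168 named genes, 152 kept their call under every alternative that could test them and 0 reversed. The other 16 did not pass under at least 1 alternative: CSTA, ACLY, F3, SREBF1, ATF3, CHAC1, HSPA5, EPCAM, UTP20, TM7SF2, PALS1, KRT23, HBEGF, POLE2, STEAP1 and IFIH1. The causes were not tested. The stricter filter left 163 of the 168 tested. Genes at or below background have only bounds.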
